A study of Mus musculus with 2 samples.

Results

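The 10 genes described here encode semaphorins, an ephrin, and receptors that guide growing vessels: Sema3g, Sema3c, Sema6d, Efnb2, Ephb4, Unc5b, Robo4, Plxnd1, Plxdc1 and Nrp2. They were taken as a named list and matched by Ensembl identifier, and all 10 were among the 27040 identifiers that both deposited count files hold. Cells came from the stria vascularis (SV), a capillary-rich epithelium on the outer wall of the cochlea that secretes potassium into endolymph. Each library pooled the SV of 20 cochleae from 10 reporter mice aged 1 to 3 months. In Tie2-GFP mice GFP is driven by the promoter of Tek, an angiopoietin receptor gene of ECs, and in NG2-DsRed mice DsRed follows that of the mural cell gene Cspg4. No treatment was given, the lines were bred in the laboratory, and the study's methods give male as well as female mice without saying how many of each entered a library.

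Vessels and axons use the same guidance proteins. Secreted class 3 semaphorins bind receptors built from a neuropilin and a plexin, the membrane-bound ephrin-B2 signals between touching cells through its receptor EphB4, and UNC5B and ROBO4 are relatives of the receptors through which axons respond to netrins and Slits. In developing vessels ephrin-B2 is known as an arterial protein and EphB4 as a venous one, while neuropilin-2 is known from veins and lymphatic vessels. Which of these genes adult strial endothelial cells (ECs), pericytes (PCs) and other mural cells, and the pigmented intermediate cells around them use is the question that the files allow to be described.

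Cell barcodes were placed in classes by genes that are not on the list. An endothelial barcode had a UMI (a counted RNA molecule) of at least 4 of Pecam1, Cdh5, Cldn5, Flt1, Egfl7 and Ramp2. A mural barcode had at least 3 of Pdgfrb, Rgs5, Vtn and Notch3 and at most 1 of the endothelial genes, and an intermediate barcode had all 3 of Dct, Tyr and Kcnj10. The Tie2-GFP library (633 barcodes, 5432289 UMIs) held 368 endothelial, 84 intermediate and 2 mural barcodes. The NG2-DsRed library (201 barcodes, 1232599 UMIs) held 54 endothelial, 94 mural and 23 intermediate barcodes. The libraries shared 0 cell barcodes, and the 2 mural barcodes of the Tie2-GFP library were too few to describe.

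The classes carried each other's RNA to different degrees. Summed over the 4 mural genes, the endothelial barcodes of the NG2-DsRed library held 4892 counts per 1000000 UMIs (CPM), which was 27.9% of the level in the mural barcodes of that library, and only 5 of the 54 had no UMI of any mural gene. In the Tie2-GFP library the endothelial barcodes held 869 CPM of mural genes, and 296 of 368 had none. Endothelial genes were at 15.7 CPM in intermediate barcodes of the Tie2-GFP library against 6746 CPM in endothelial barcodes, and at 34.4 CPM in the mural barcodes, where Flt1 and Ramp2 were at 0. The mural rule allows at most 1 of these endothelial genes in a barcode, so the level of 34.4 CPM is held low by the rule. It is no measure of endothelial RNA carried into mural barcodes. The endothelial rule sets no limit on mural genes, so the mural and endothelial levels cannot be compared as carry-over. Intermediate genes were at 20.4 CPM in the endothelial barcodes of the Tie2-GFP library, with Tyr at 0. Erythroid genes stood at 2518 CPM in endothelial barcodes of the Tie2-GFP and 22.1 CPM in those of the NG2-DsRed library. Genes of marginal cells, the epithelial layer that faces endolymph, stood at 538 CPM in mural barcodes, all of it from 1 of 4 genes (Atp1b2), at 393 CPM in intermediate barcodes of the Tie2-GFP library, and at 8.16 to 145 CPM in the other 3 sets. Over the 5 sets, genes of basal cells ranged from 0 to 76.3 CPM, those of fibrocytes from 0 to 18.8 CPM and those of macrophages from 0 to 12.1 CPM. Median UMIs per barcode were 7502.5, 9010 and 3017.5 for endothelial (Tie2-GFP), endothelial (NG2-DsRed) and mural barcodes, and 15339.5 and 10383 for intermediate barcodes of the Tie2-GFP and NG2-DsRed libraries.

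With 1 library per reporter line there was no replicate, so no test between classes or lines was made. Levels below are CPM of the summed UMIs of a class, with exact 95% Poisson intervals that cover counting error only. Ratios are log2 ratios of CPM between 2 classes of 1 library, with 0.5 counts added to each and an exact conditional 95% interval. A class at 0 is given the bound that 3 UMIs over the class would set. This bound leaves out the counting error of the other class and is not a 95% limit. A member counts as higher in a class at 2-fold or more among genes with at least 20 UMIs over both classes.

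**Figure D1:**
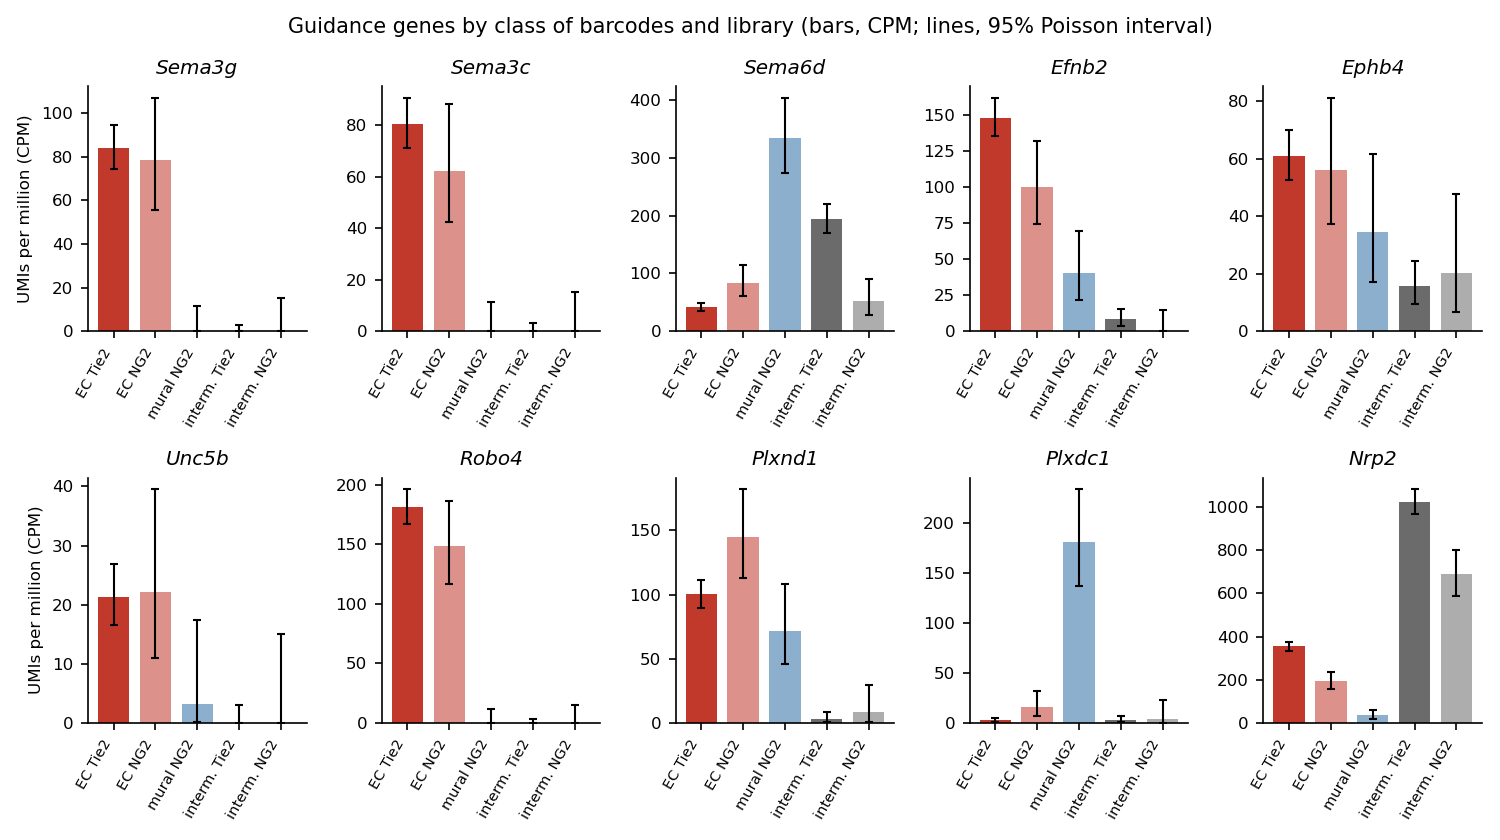
Each panel plots 1 gene, with CPM of summed UMIs on the vertical axis from 0 and 5 bars for endothelial (EC), mural and intermediate (interm.) barcodes by library (Tie2, Tie2-GFP; NG2, NG2-DsRed); lines are exact 95% Poisson intervals. Sema3g, Sema3c and Robo4 have bars in endothelial barcodes and none in mural or intermediate barcodes, Plxdc1 is tallest in mural barcodes at 181 CPM, and Nrp2 is tallest in intermediate barcodes.

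The secreted semaphorins Sema3g and Sema3c were found in endothelial barcodes and at 0 in the other classes. Sema3g (chr14:31217860-31230352, plus strand, GRCm38), which encodes a class 3 semaphorin, stood at 84.0 CPM (74.4 to 94.6) in endothelial barcodes of the Tie2-GFP library and at 78.4 CPM (55.7 to 107) in those of the NG2-DsRed library. It had 0 UMIs in the 84 and 23 intermediate barcodes and in the 94 mural barcodes, where 3 UMIs would have made 2.49, 12.2 and 9.38 CPM. A Sema3g UMI was found in 122 of 368 endothelial barcodes of the Tie2-GFP library, or 33.2% (28.4 to 38.2, Clopper-Pearson interval).

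Sema3c (chr5:17574281-17730268, plus strand), another class 3 semaphorin, stood at 80.4 CPM (71.0 to 90.7) and 62.3 CPM (42.3 to 88.4) in the endothelial barcodes of the 2 libraries, and at 0 in mural and intermediate barcodes. Its UMIs were gathered in few barcodes. They came from 83 of 368 barcodes, 14 barcodes held 5 or more, and the 10 barcodes with most UMIs held 47.0% of them. In the barcode with most Sema3c there were 33 UMIs.

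Sema6d, a membrane-bound semaphorin that binds plexins, was highest in mural barcodes. At chr2:124089969-124667770 (plus strand), it stood at 335 CPM (274 to 404) in mural barcodes, 194 CPM (169.9 to 220.5) in intermediate barcodes of the Tie2-GFP library and 42.0 CPM (35.3 to 49.6) in endothelial barcodes of that library. In the NG2-DsRed library its level was 84.4 CPM (60.8 to 114) in endothelial barcodes and 53.1 CPM (28.3 to 90.8) in intermediate barcodes, and these intervals overlap. Part of the endothelial level moved with mural RNA: among the 296 endothelial barcodes of the Tie2-GFP library without a mural gene, Sema6d fell to 26.8 CPM (20.6 to 34.3), with 63 of its 138 UMIs. The intermediate levels of the 2 libraries differed by 1.82 on the log2 scale (1.07 to 2.80), a ratio larger than that of 96.8% of genes. Line, batch and software version differ together between these libraries and cannot be told apart.

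Efnb2 encodes ephrin-B2, the ligand of EphB4, and was highest in endothelial barcodes. At chr8:8617434-8661242 (minus strand), it stood at 149 CPM (136 to 162) in endothelial barcodes of the Tie2-GFP library and at 100.5 CPM (74.6 to 132) in those of the NG2-DsRed library. Mural barcodes held 40.6 CPM (21.6 to 69.5), in 13 barcodes with 1 UMI each, and intermediate barcodes 8.29 CPM (3.97 to 15.2) and 0 CPM in the 2 libraries. An Efnb2 UMI was found in 59.8% of the 368 endothelial barcodes (54.6 to 64.8) and in 11.9% of the 84 deeper intermediate barcodes (5.86 to 20.8).

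Among the receptors, Robo4 was the one with no UMI in mural or intermediate barcodes. Robo4 (chr9:37401897-37415115, plus strand), a roundabout receptor known for its use by endothelium, stood at 181 CPM (167 to 196) and 149 CPM (117 to 187) in the endothelial barcodes of the 2 libraries. It had 0 UMIs in 94 mural and in 84 and 23 intermediate barcodes, although 66.8% of the 368 endothelial barcodes held at least 1.

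Unc5b (chr10:60762593-60831581, minus strand), a netrin receptor known from arterial ECs and sprouting tip cells, was also highest in endothelial barcodes. It stood at 21.3 CPM (16.6 to 26.9) and 22.1 CPM (11.0 to 39.5) in endothelial barcodes, with no barcode over 3 UMIs. Mural barcodes held 1 UMI (3.13 CPM, 0.0792 to 17.4) and intermediate barcodes 0.

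Plxnd1 and Ephb4 were shared by endothelial and mural barcodes. Plxnd1 (chr6:115954811-115995005, minus strand), a plexin that semaphorins bind on vessels, stood at 100.2 CPM (89.6 to 112) and 145 CPM (113 to 182) in the endothelial barcodes of the 2 libraries, 71.9 CPM (45.6 to 108) in mural barcodes, and 3.32 and 8.16 CPM in intermediate barcodes. Ephb4 (chr5:137350109-137378669, plus strand), the receptor of ephrin-B2, stood at 60.9 CPM (52.8 to 69.9) and 56.3 CPM (37.4 to 81.3) in endothelial, 34.4 CPM (17.2 to 61.5) in mural, and 15.7 CPM (9.48 to 24.6) and 20.4 CPM (6.63 to 47.6) in intermediate barcodes. For Ephb4 in the NG2-DsRed library the intervals of neighbouring classes overlap at each step.

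Plxdc1 (chr11:97923238-97986444, minus strand), a membrane protein with a plexin-like domain that is also called tumor endothelial marker 7, was a mural gene in these libraries. It stood at 181 CPM (138 to 234) in mural barcodes, with a UMI in 32 of 94, and at 2.74 CPM (1.25 to 5.20) in endothelial barcodes of the Tie2-GFP library. All 9 of those endothelial UMIs lay in barcodes that also held a mural gene, and the 296 without one had 0, which allows a level of up to 1.28 CPM at 3 UMIs. Endothelial barcodes of the NG2-DsRed library held 16.1 CPM (6.94 to 31.7), and intermediate barcodes 2.49 and 4.08 CPM.

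Nrp2 (chr1:62703285-62818695, plus strand), the neuropilin that binds class 3 semaphorins and VEGF-C, was highest in intermediate barcodes. It stood at 1025 CPM (968 to 1083) in 84 intermediate barcodes of the Tie2-GFP library and 689.9 CPM (589.8 to 802) in 23 of the NG2-DsRed library. Endothelial barcodes held 354 CPM (334 to 375) and 193 CPM (156 to 236), and mural barcodes 34.4 CPM (17.2 to 61.5). These intervals do not overlap between classes within either library. With each barcode reduced to 2575 UMIs, the expected share with an Nrp2 UMI was 81.7% of intermediate and 53.9% of endothelial barcodes of the Tie2-GFP library, and 79.4%, 34.9% and 5.12% of intermediate, endothelial and mural barcodes of the NG2-DsRed library, which is the order of the CPM.

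Sequence upstream of the start is shown for 4 genes that lay on opposite sides when endothelial barcodes were split by Gja4 and Slc38a5. Sema3g and Unc5b lay on the Gja4 side and Robo4 and Nrp2 on the Slc38a5 side, with the values given further on. RefSeq (GRCm38.p6) gave windows for 9 of the 10 genes (Plxdc1 had none), and the bases printed are those of the 250 before the RefSeq start that precede the GENCODE M21 gene, on the strand of the gene. Capitals mark GGAAG or its reverse complement CTTCC, letters found in many ETS factor sites, and CACCC or GGGTG, letters found in many Krueppel-like factor sites. The windows lie at chr14:31217623-31217859 for Sema3g (plus strand, 237 bases), chr10:60831582-60831831 for Unc5b (minus strand, 250 bases), chr9:37401722-37401896 for Robo4 (plus strand, 175 bases) and chr1:62703067-62703284 for Nrp2 (plus strand, 218 bases).
Sema3g: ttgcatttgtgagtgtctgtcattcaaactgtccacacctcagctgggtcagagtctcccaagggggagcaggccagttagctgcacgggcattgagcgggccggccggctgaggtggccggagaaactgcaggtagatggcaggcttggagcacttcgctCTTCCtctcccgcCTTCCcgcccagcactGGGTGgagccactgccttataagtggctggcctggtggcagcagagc
Unc5b: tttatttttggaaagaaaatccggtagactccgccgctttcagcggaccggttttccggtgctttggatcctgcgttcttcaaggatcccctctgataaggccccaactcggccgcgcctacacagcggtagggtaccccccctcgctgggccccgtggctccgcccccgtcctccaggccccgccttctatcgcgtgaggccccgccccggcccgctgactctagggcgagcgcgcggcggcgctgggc
Robo4: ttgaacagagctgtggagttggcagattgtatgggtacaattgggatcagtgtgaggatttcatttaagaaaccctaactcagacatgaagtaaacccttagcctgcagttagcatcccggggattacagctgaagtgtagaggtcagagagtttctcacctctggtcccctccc
Nrp2: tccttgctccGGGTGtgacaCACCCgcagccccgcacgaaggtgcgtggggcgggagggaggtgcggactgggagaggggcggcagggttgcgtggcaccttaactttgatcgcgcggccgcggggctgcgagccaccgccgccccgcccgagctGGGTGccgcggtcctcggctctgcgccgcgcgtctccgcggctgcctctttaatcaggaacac
In the full windows of 250 bases GGAAG was found on either strand in 5 of the 9 genes and in 64.1% of all 32851 windows, and CACCC in 6 of 9 and in 52.0%. Sema3g had 2 and 1 matches, Robo4 2 and 0 (both in the 75 bases not printed), Nrp2 0 and 3, and Unc5b 0 and 0, overlapping matches being counted apart. TGGGAA, whose letters overlap GGAAG, was found in 1 gene (Sema6d) and in 21.6% of all windows, and TAAACA in 0 genes and in 12.0%. Neither GGAAG nor CACCC sorted the 4 genes by side.

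Between endothelial and mural barcodes of the NG2-DsRed library, 9 of the 10 genes had at least 20 UMIs. Of these, 5 were at least 2-fold higher in endothelial barcodes (Sema3g, Sema3c, Efnb2, Robo4 and Nrp2), where 13.5% of 6217 genes were, and 2 were higher in mural barcodes (Sema6d and Plxdc1), where 16.0% of genes were. Their median log2 ratio was 1.27, beside -0.10 over all genes. Robo4 was at least 15.9-fold, Sema3g at least 8.35-fold and Sema3c at least 6.64-fold higher in endothelial barcodes, each against a mural level of 0. Nrp2 was 5.39-fold higher (log2 2.43, 1.58 to 3.54) and Efnb2 2.40-fold higher (log2 1.27, 0.40 to 2.31).

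On the mural side of that comparison, Plxdc1 was 10.7-fold higher in mural barcodes (log2 -3.42, -4.77 to -2.42) and Sema6d 3.94-fold higher (log2 -1.98, -2.54 to -1.46). Plxnd1 at a log2 ratio of 0.99 (0.31 to 1.75) and Ephb4 at 0.67 (-0.34 to 1.86) lay under 2-fold, and the interval of Ephb4 spans 0. Unc5b had 12 UMIs in all and was too low for the count. With the 368 endothelial barcodes of the Tie2-GFP library set against the same mural barcodes, the log2 ratio was -5.98 for Plxdc1 and -2.99 for Sema6d, and without NG2-DsRed endothelial barcodes holding at least 3 mural genes (25 kept) that of Sema6d was -2.85. With only the 5 endothelial barcodes that held no mural gene, 0 genes of the list passed as higher in endothelial barcodes. This count cannot show whether the contrast held, since Robo4, Efnb2, Nrp2, Sema3g and Sema3c all fell under the UMI minimum. Robo4 had 8 UMIs at 351 CPM (152 to 692) against 0 in mural barcodes. Efnb2 had 6 UMIs at 263 CPM (96.6 to 573) against 40.6 CPM, and Nrp2 had 4 at 176 CPM (47.8 to 449) against 34.4 CPM. Sema3g and Sema3c had 1 UMI each.

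Between endothelial and intermediate barcodes of the Tie2-GFP library, 7 of 9 genes with enough UMIs were higher in endothelial barcodes, where 28.3% of 10406 genes were, and 2 (Sema6d and Nrp2) were higher in intermediate barcodes, where 19.6% were. The median log2 ratio was 4.75, or 4.10 with genes at 0 set to their bound, beside 0.16 over all genes. Robo4, Sema3g, Sema3c and Unc5b were all at 0 in intermediate barcodes. Against the level that 3 UMIs would set there, they were 72.9-fold, 33.8-fold, 32.3-fold and 8.57-fold higher in endothelial barcodes. Plxnd1 was 26.9-fold (log2 4.75, 3.55 to 6.80), Efnb2 17.1-fold (log2 4.10, 3.27 to 5.23) and Ephb4 3.78-fold higher (log2 1.92, 1.27 to 2.71). Sema6d was 4.61-fold higher in intermediate barcodes (log2 -2.21, -2.52 to -1.90) and Nrp2 2.90-fold higher (log2 -1.53, -1.65 to -1.42). In the NG2-DsRed library Nrp2 had the same direction, at 193 CPM in endothelial and 689.9 CPM in intermediate barcodes. Sema6d did not, at 84.4 and 53.1 CPM with overlapping intervals. Those endothelial barcodes held mural genes at 27.9% of the mural level, and the part of mural RNA in their Sema6d level was not tested.

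Between mural and intermediate barcodes of the NG2-DsRed library only 4 of the 10 genes had enough UMIs. Sema6d (6.10-fold), Plxnd1 (7.20-fold) and Plxdc1 (29.9-fold) were higher in mural barcodes, where 26.2% of 4950 genes were, and Nrp2 was 19.2-fold higher in intermediate barcodes (log2 -4.27, -5.36 to -3.45), where 17.2% were. The Plxnd1 and Plxdc1 ratios rest on 2 and 1 intermediate UMIs, with log2 intervals of 1.12 to 6.27 and 2.94 to 10.8. The median of the 4 log2 ratios was 2.73, beside 0.19 over all genes.

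**Figure D2:**
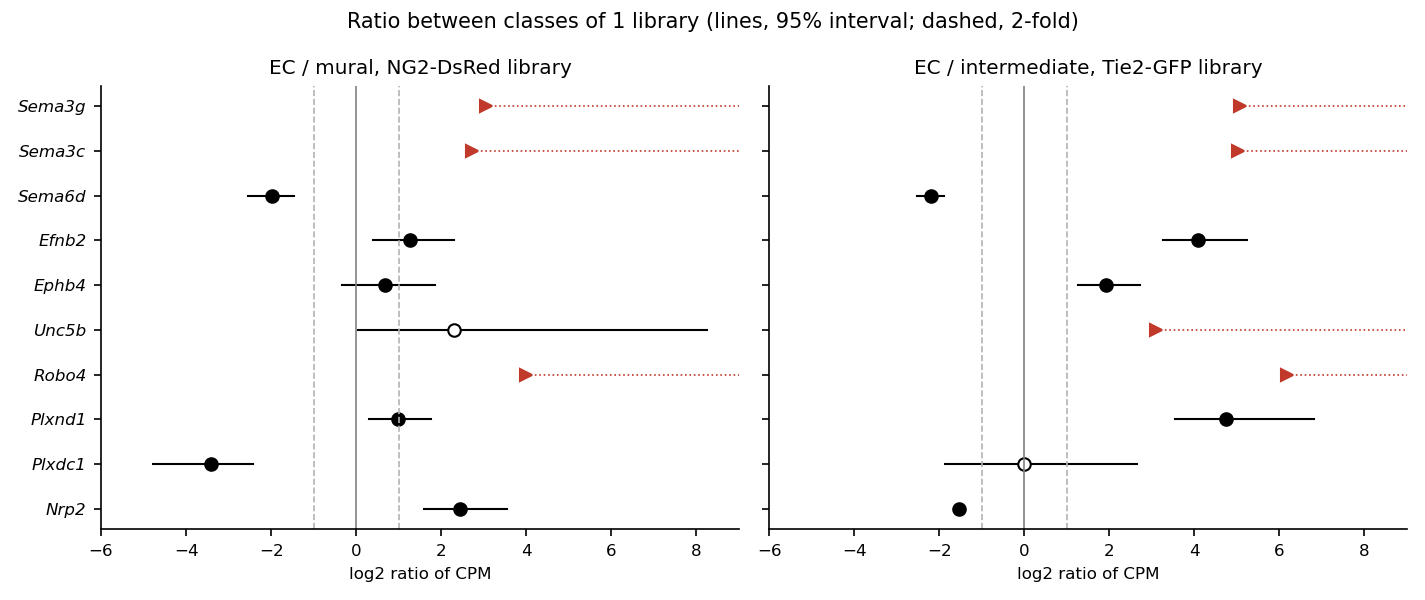
Log2 ratios of CPM are plotted for the 10 genes, endothelial over mural barcodes of the NG2-DsRed library on the left and endothelial over intermediate barcodes of the Tie2-GFP library on the right. Lines are exact 95% intervals, open points had fewer than 20 UMIs, red arrows with dotted lines are lower bounds for genes at 0 in the second class, and dashed lines mark 2-fold; Sema6d lies left of 0 in both panels, while Nrp2 lies right of 0 on the left (2.43) and left of 0 on the right (-1.53).

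Within the endothelial class, barcodes were split by genes that are not on the list. Gja4 encodes the arterial gap junction protein connexin 37, and Slc38a5 is an amino acid transporter gene used as a venous-side marker. The sides are named by these genes, since the reference genes given below followed them only in part. In the Tie2-GFP library 46 endothelial barcodes had Gja4 only, 68 had Slc38a5 only, 2 had both and 252 had neither, with median UMIs of 9699.5, 9359.5, 18751.5 and 7113.5. Of the other arterial reference genes, Vegfc (67.3 against 1.37 CPM) and Jag1 (111 against 35.7 CPM) were over 2-fold higher with Gja4, Bmx (235 against 124 CPM), Sox17 (509 against 356 CPM) and Dll4 (98.0 against 90.7 CPM) were not, and Hey1 (18 against 0 UMIs) and Gja5 (2 against 0 UMIs) had under 20 UMIs. Of the other venous reference genes, Vwf (84.6 against 247 CPM) was over 2-fold higher with Slc38a5 and Icam1 (138 against 261 CPM) was not. Nr2f2 stood at 94.2 against 82.4 CPM, Vcam1 was higher with Gja4 (34.6 against 8.24 CPM), Aplnr had 0 against 9 UMIs, and Ackr1 and Selp had 0 UMIs.

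Mural RNA went with Gja4. The Gja4 barcodes held 2728 CPM of the 4 mural genes against 345 CPM in the Slc38a5 barcodes, 29 of 46 and 57 of 68 had none, and Gja4 itself stood at 569 CPM in mural barcodes. Of the other reference genes, Nr2f2, Jag1 and Hey1 also stood in mural barcodes, at 694, 391 and 53.2 CPM. In endothelial barcodes of the Tie2-GFP library they stood at 70.6, 63.3 and 19.5 CPM. The remaining reference genes were at 0 to 3.13 CPM in mural barcodes. The part of mural RNA in the contrasts of the reference genes was not tested. For guidance genes, log2 ratios without barcodes that held any mural gene are therefore given as well.

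Of the 9 genes with enough UMIs, 3 were at least 2-fold higher with Gja4 (Sema3g, Sema6d and Unc5b), where 6.18% of 6863 genes were, and 2 were higher with Slc38a5 (Robo4 and Nrp2), where 5.00% were. The median log2 ratio of the 9 was 0.32, beside 0.03 over all genes.

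Sema3g had the widest contrast of these 9 genes. It stood at 227 CPM (188 to 272) with Gja4, 73.0 CPM (61.7 to 85.9) with neither gene and 13.7 CPM (6.59 to 25.3) with Slc38a5. A UMI of Sema3g was found in 35 of 46 Gja4 barcodes (76.1%) and in 6 of 68 Slc38a5 barcodes (8.82%), and with each barcode reduced to 3519 UMIs the expected shares were 50.2% and 4.77%. The ratio was 15.8-fold (log2 3.98, 3.11 to 5.14), and 4.37 (3.40 to 5.71) on the log2 scale without barcodes that held a mural gene.

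Unc5b followed the same order, with 40.4 CPM (25.0 to 61.7), 20.0 CPM (14.3 to 27.2) and 11.0 CPM (4.75 to 21.7) with Gja4, neither and Slc38a5. Its ratio was 3.54-fold (log2 1.82, 0.64 to 3.26), and 2.16 (0.73 to 3.90) on the log2 scale without mural genes, on 13 against 6 UMIs. With the depth-matched split, which left 5 against 2 UMIs, the interval of Unc5b spans 0 (log2 1.83, -0.59 to 5.41).

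Robo4 and Nrp2 had the reverse order. Robo4 stood at 76.9 CPM (54.9 to 105), 180.1 CPM (162 to 199.7) and 257 CPM (221 to 297) with Gja4, neither and Slc38a5, and was 3.31-fold higher with Slc38a5 (log2 -1.73, -2.27 to -1.24). Nrp2 stood at 181 CPM (146 to 221), 371 CPM (345 to 399) and 419 CPM (373 to 469), and was 2.31-fold higher with Slc38a5 (log2 -1.21, -1.56 to -0.88). Without mural genes the log2 ratios were -1.78 (-2.61 to -1.10) for Robo4 and -1.15 (-1.63 to -0.72) for Nrp2. At equal depth a Robo4 UMI was expected in 22.6% of Gja4 and 58.2% of Slc38a5 barcodes, and an Nrp2 UMI in 37.9% and 69.5%. With the depth-matched split, which thinned barcodes before the sides were set, the log2 ratio was -1.83 (-3.46 to -0.67) for Robo4 and -0.78 (-1.69 to 0.02) for Nrp2, on 17 against 48 UMIs, so that Nrp2 fell below 2-fold and its interval spans 0.

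**Figure D3:**
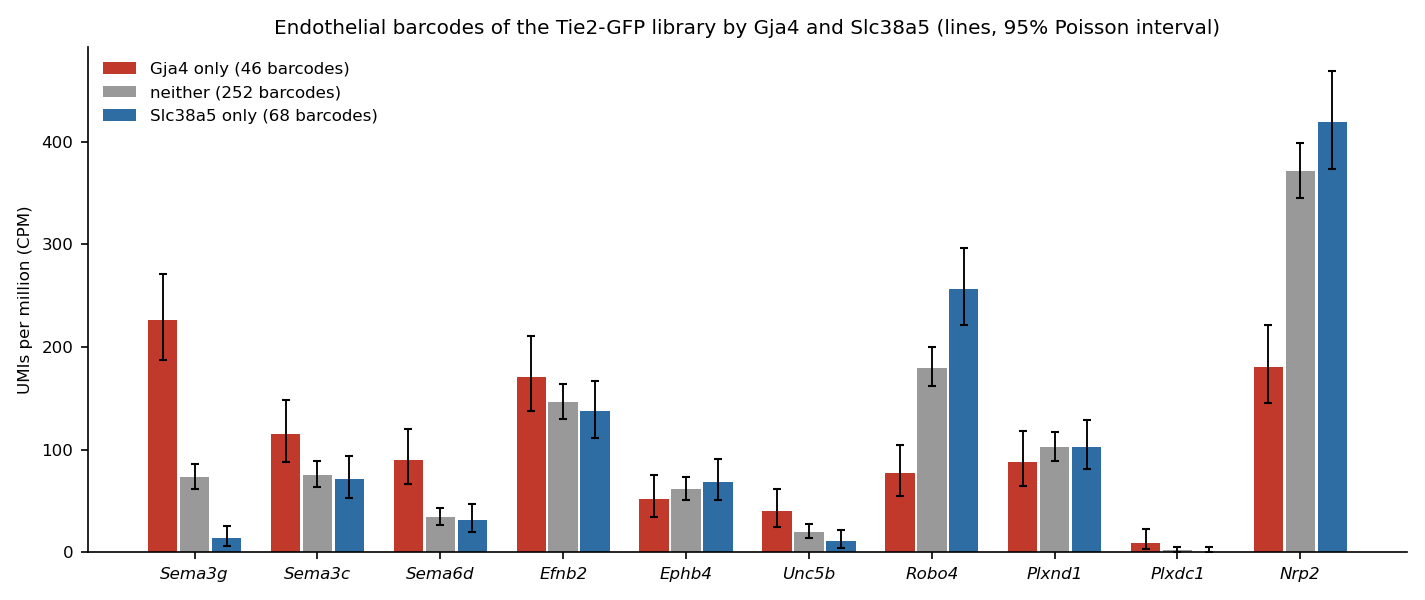
CPM of the 10 genes is plotted on the vertical axis, from 0, for endothelial barcodes of the Tie2-GFP library with Gja4 only (red, 46 barcodes), neither gene (grey, 252) and Slc38a5 only (blue, 68), with exact 95% Poisson intervals as lines. Sema3g steps down from 227 to 13.7 CPM from red to blue, while Robo4 and Nrp2 step up.

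Sema6d and Sema3c depended on which barcodes were kept. Sema6d stood at 90.3 CPM (66.4 to 120.1) with Gja4 and 31.6 CPM (20.0 to 47.4) with Slc38a5, a 2.83-fold ratio (log2 1.50, 0.77 to 2.30). Without barcodes that held any mural gene this ratio was 0.24 on the log2 scale (-1.25 to 1.53), with 8 against 15 UMIs. Sema3c stood at 115 CPM (88.0 to 148) and 71.5 CPM (53.4 to 93.7), a 1.61-fold ratio (log2 0.69, 0.13 to 1.26). Of the 52 Sema3c UMIs with Slc38a5, 33 lay in 1 barcode. Without that barcode the Slc38a5 level was 26.4 CPM and the log2 ratio 2.10 (1.36 to 2.95), while without barcodes holding a mural gene it was 0.18 (-0.59 to 0.89).

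The pair of ephrin-B2 and its receptor showed no 2-fold difference across this split with all barcodes and any UMI setting the side. Efnb2 stood at 171 CPM (137 to 211) with Gja4, 147 CPM (130.3 to 164) with neither and 137 CPM (112 to 167) with Slc38a5 (log2 0.32, -0.11 to 0.74). Ephb4 stood at 51.9 CPM (34.2 to 75.5), 61.5 CPM (51.1 to 73.4) and 68.7 CPM (51.0 to 90.6) (log2 -0.39, -1.14 to 0.30). Without barcodes holding a mural gene Efnb2 had a log2 ratio of 0.75 (0.23 to 1.25) and Ephb4 one of 0.27 (-0.59 to 1.06), and with at least 2 UMIs required to set the side, Ephb4 had one of -1.32 (-2.50 to -0.33). Plxnd1 stood at 88.4 CPM and 103 CPM (log2 -0.21, -0.78 to 0.33), with a log2 ratio of -0.67 (-1.60 to 0.12) without mural genes. Plxdc1 had 5 against 0 UMIs, all in barcodes that held a mural gene.

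The 54 endothelial barcodes of the NG2-DsRed library gave levels that serve only as a side view, since 14 had Gja4 only and 4 had Slc38a5 only. Sema3g had 21 UMIs in 10 of the 14 and 1 UMI in 1 of the 4, at 141 and 27.4 CPM. Robo4 had 12 UMIs in 5 of 14 and 9 UMIs in all 4, at 80.8 and 246 CPM. Nrp2 was at 148 and 137 CPM, on 22 and 5 UMIs. Of the 8 Plxdc1 UMIs in endothelial barcodes of this library, 7 lay in the 14 barcodes with Gja4 only and 1 in a barcode with both genes. Only 5 of the 54 barcodes held no mural gene, and those 5 had 0 Plxdc1 UMIs. Gja4 and Plxdc1 stood at 569 and 181 CPM in mural barcodes, and the part of mural RNA in these levels was not tested.

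**Figure D4:**
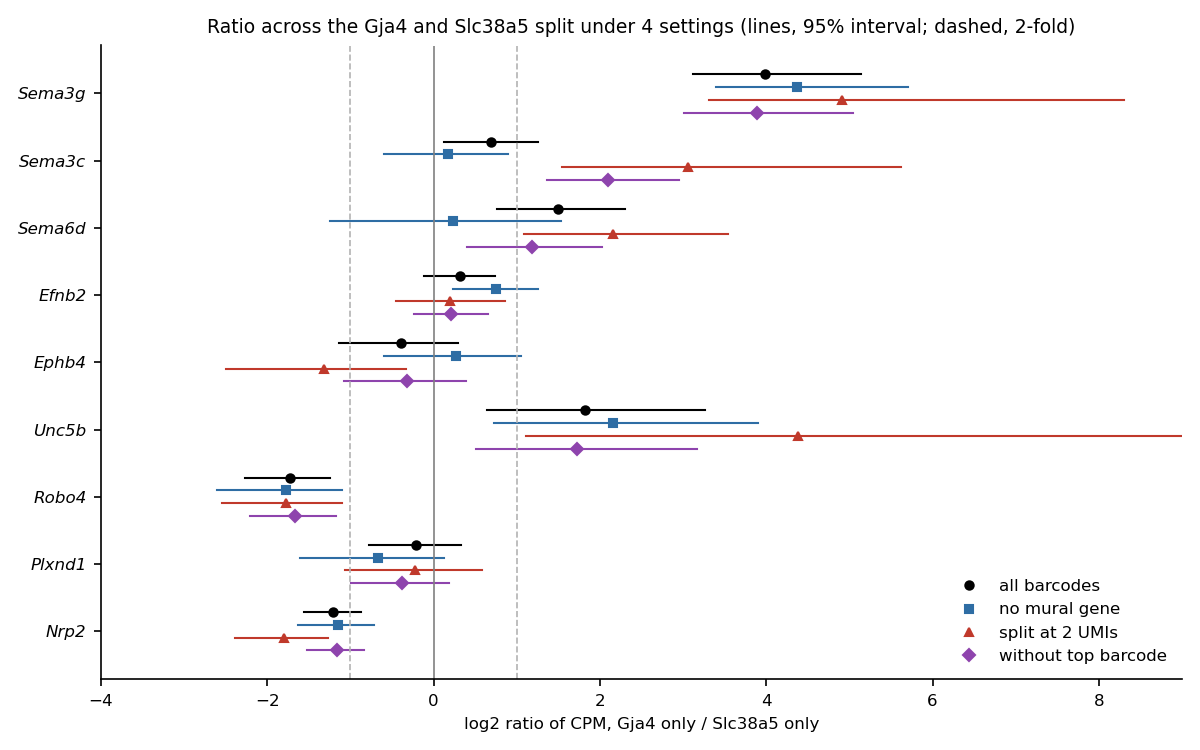
Log2 ratios of CPM, Gja4 only over Slc38a5 only, are plotted for 9 genes (Plxdc1 is left out for low counts) with all barcodes (black), without barcodes holding a mural gene (blue), with 2 or more UMIs setting the side (red) and without the barcode with most UMIs of the gene (purple). Lines are exact 95% intervals, cut at the edge where there is no upper limit, and dashed lines mark 2-fold. Sema3g stays right of 3 and Robo4 left of -1 in all 4 settings, while Sema3c, Sema6d and Ephb4 move across the 2-fold line.

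Single barcodes held few of these RNAs at once. The median endothelial barcode of the Tie2-GFP library had a UMI of 4 of the 10 genes, 127 of 368 had 5 or more, and 4 had none. Efnb2 and Ephb4 were found together in 84 barcodes, which were 38.2% of those with Efnb2 and 60.9% of those with Ephb4, while 37.5% of all endothelial barcodes held Ephb4. Sema3g and Nrp2, a class 3 semaphorin and a neuropilin, were found together in 89 barcodes, 73.0% of those with Sema3g, while 79.6% of all held Nrp2. Sema3g and Robo4 shared 78 barcodes, 63.9% of those with Sema3g against 66.8% of all.

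Across the 368 barcodes, correlations of log-normalized UMIs between the 10 genes were weak. Sema3g had r = 0.37 with Gja4, 0.19 with Unc5b and 0.16 with Sema3c, and -0.21 with Robo4 and -0.17 with Nrp2, and Efnb2 and Ephb4 had r = 0.03. Among 4911 genes found in at least 20% of these barcodes, those most like Sema3g were Slc6a6 (r = 0.52), the taurine transporter gene, Glul (r = 0.41), the glutamine synthetase gene, and S100a6 (r = 0.37). Slc6a6 was also the gene most like Sema3c (r = 0.31) and, with Glul, Unc5b (r = 0.30 for both). Robo4 was most like Itih5 (r = 0.32), Abca1 (r = 0.31), a cholesterol efflux gene, and Ctla2a (r = 0.30). For the other 6 genes no correlation reached 0.3. These barcodes share 1 library, and the values are given as a description.

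Of 63 other genes of these families 62 were found in both files. Between endothelial and mural barcodes 16 had enough UMIs, of which 6 were higher in endothelial and 6 in mural barcodes, with a median log2 ratio of -0.76. Over all 6217 genes 13.5% and 16.0% were, with a median of -0.10. On the endothelial side Sema6a (129 against 3.13 CPM), Sema7a (96.4 against 0 CPM) and Efnb1 (72.3 against 15.6 CPM) had the most UMIs, and on the mural side Plxdc2, the relative of Plxdc1 (56.3 against 213 CPM), the netrin gene Ntn4 (50.2 against 122 CPM) and Sema5a (32.1 against 122 CPM). Plxdc2 thus lay on the same side as Plxdc1, with a log2 ratio of -1.90 (-2.61 to -1.26).

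Between endothelial and intermediate barcodes 14 of 23 such genes were higher in endothelial barcodes and 8 in intermediate barcodes, with a median log2 ratio of 2.58. Over all 10406 genes 28.3% and 19.6% were, with a median of 0.16. Nrp1 and Nrp2, the 2 neuropilins, were on opposite sides: Nrp1 stood at 192 CPM in endothelial and 2.49 CPM in intermediate barcodes of the Tie2-GFP library (log2 6.05, 4.71 to 8.55). In the NG2-DsRed library Nrp1 stood at 663 CPM in mural and 360 CPM (309 to 416) in endothelial barcodes. Sema6a (235 against 43.1 CPM) and Efna1 (133 against 4.97 CPM) were the other endothelial genes with most UMIs. The plexin genes Plxnc1 (0.913 against 135 CPM) and Plxna1 (8.53 against 77.1 CPM) and Plxdc2 (8.83 against 89.5 CPM) were those of intermediate barcodes.

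Between mural and intermediate barcodes 7 of 12 were higher in mural barcodes, with Nrp1, Plxdc2 (213 against 98.0 CPM) and Sema5a (122 against 4.08 CPM) leading, and 3 in intermediate barcodes: Sema7a (0 against 106 CPM), Plxnc1 (0 against 89.8 CPM) and Sema4b (21.9 against 53.1 CPM, log2 interval -2.84 to 0.15). Over all genes 26.2% were higher in mural and 17.2% in intermediate barcodes. Along the Gja4 and Slc38a5 split 3 of 16 were higher with Gja4 and 2 with Slc38a5, beside 6.18% and 5.00% of all genes. Nrp1 (321 against 143 CPM), Sema3f (80.7 against 33.0 CPM), a class 3 semaphorin that binds neuropilin-2, and Sema4c (65.4 against 20.6 CPM) were higher with Gja4, and Plxna4 (7.69 against 46.7 CPM) and Flrt2 (11.5 against 49.5 CPM) with Slc38a5. Without barcodes that held a mural gene the log2 ratio was 1.09 (0.62 to 1.55) for Nrp1, 1.50 (0.65 to 2.37) for Sema3f, -1.64 (-4.21 to -0.11) for Plxna4 and -1.56 (-3.67 to -0.19) for Flrt2, all still past 2-fold. That of Sema4c was 0.80 (-0.76 to 2.28), on 8 against 10 UMIs.

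**Figure D5:**
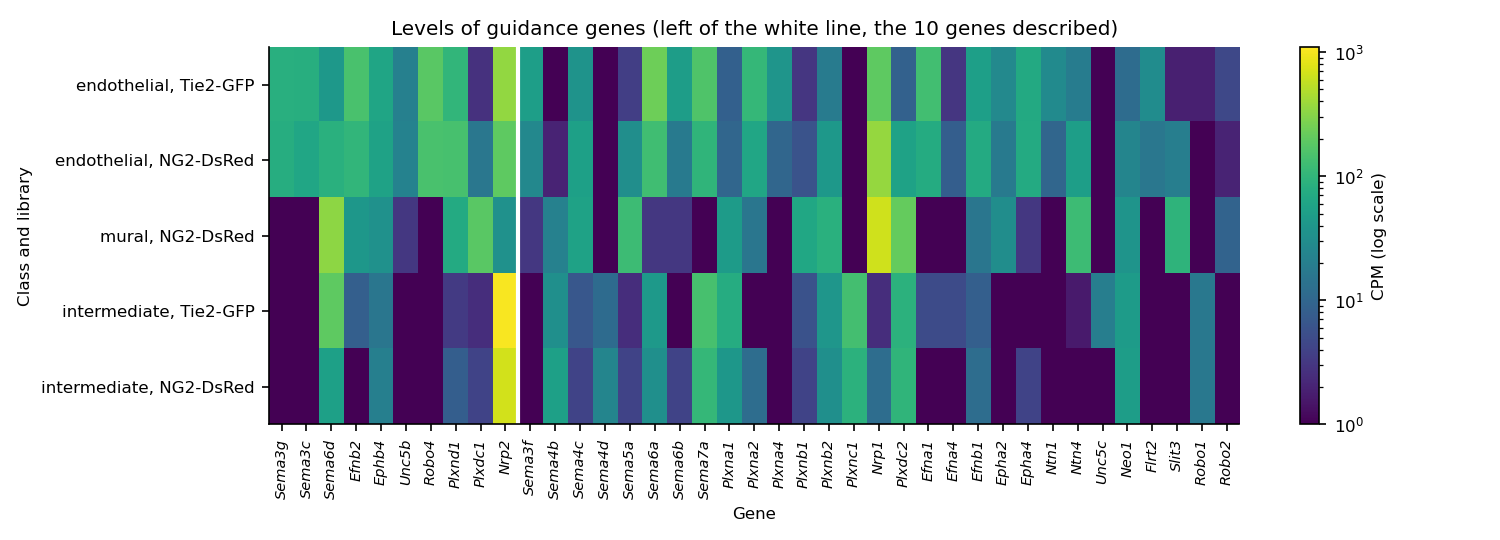
Colour gives CPM on a log scale from 1 CPM (darkest, also used for 0) for 39 guidance genes with at least 20 UMIs over the classes, in 5 bands for class and library; the 10 genes described are left of the white line. The Nrp2 column is brightest in the intermediate bands and the Nrp1 column in the mural band, at 663 CPM.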

How the data were processed

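Single cells of the SV were measured in 2 libraries by 10x Chromium 3′ sequencing. The study's methods describe sorting by reporter fluorescence where enrichment was needed, and do not say whether each library was sorted. The deposited files hold raw counts of UMIs for each gene in each barcode, without normalization by the authors. The submitters' processing notes name bcl2fastq 2.20.0.422 and the mm10 build, and the matrix headers give Cell Ranger 7.0.0 (Tie2-GFP) and software version 3.0.0 (NG2-DsRed), and whether intronic reads were counted is not given in the sources used here. Levels were not scaled by gene length, and they were compared between classes and not between genes.

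Barcodes kept had 200 to 6000 genes and at most 30000 UMIs (Tie2-GFP) or 200 to 5000 genes and at most 20000 UMIs (NG2-DsRed), at least 200 UMIs and at most 40% ribosomal UMIs, after the study's methods. The limit of 5% mitochondrial UMIs was applied to endothelial and mural barcodes only, because median mitochondrial shares of intermediate barcodes were 9.36% and 5.55%. With that limit 6 of 84 (Tie2-GFP) and 7 of 23 (NG2-DsRed) intermediate barcodes would remain. The intermediate levels thus rest mostly on barcodes that the study's limit would leave out. The 2 NG2-DsRed barcodes that met 2 class rules were left out. UMIs were summed per class in Python 3.11.15 (numpy 2.4.6, scipy 1.17.1, pandas 2.3.3). Shares at equal depth are expected values after drawing each barcode to the 10th percentile of UMIs (2575 over classes, 3519 over endothelial barcodes), with shallower barcodes left out. Doublets were scored with Scrublet (scanpy 1.11.5) and removed only in an alternative (3 and 0 barcodes). The steps were tested on simulated data. GENCODE M21 gave positions.

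The genes described, the other guidance genes and the comparisons were chosen with earlier results of these data known. Other guidance genes are named where past 2-fold with the 3 largest sums of UMIs in each direction, and genes most like a member where r was at least 0.3, up to 3 each. Alternatives covered the barcode limits, classes, mural carry-over, doublets, weights, the identifiers summed, the UMI minimum and the split. Leaving out barcodes with any mural gene, or the barcode with most UMIs of a gene, and the split of mural barcodes were added after the data were seen. The values of 1 further marker list are not reported here.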

Additional observations from a re-analysis of the deposited data

How the results depend on the processing

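Of 86 counts of genes past 2-fold recomputed under alternatives, 81 stayed within 1.5 times the reported count. Some of the 81 could not move, because the alternative left the same barcodes. The doublet step took 0 barcodes from the NG2-DsRed library, a number fixed by library size whatever the scores were. It cannot show whether that library held doublets. Keeping barcodes of 2 classes changed no Tie2-GFP set. Without endothelial barcodes that held any mural gene, 5 endothelial barcodes of the NG2-DsRed library remained, with 22790 UMIs, and 0 genes were called higher in endothelial and 1 (Sema6d) higher in mural barcodes. The genes called higher in endothelial barcodes before this step all fell under the UMI minimum after it. Plxdc1 had 0 UMIs in the 5 endothelial barcodes, where 3 UMIs would make 132 CPM. Against 181 CPM in mural barcodes this bound could not reach 2-fold, so the missing call does not show a smaller contrast. Across the Gja4 and Slc38a5 split, leaving out barcodes with any mural gene left 1 gene (Sema3g) higher with Gja4. Unc5b dropped from this count because it fell under the UMI minimum, with its ratio given above, while Sema6d fell below 2-fold. With barcodes thinned at random once to 3519 UMIs before the split, 21 and 34 barcodes remained and 1 gene was called on each side, Sema3g with Gja4 and Robo4 with Slc38a5, while Nrp2 was not. Unc5b and Sema6d were under the UMI minimum in the thinned split. The share over all genes was not computed under the alternatives. Of 399 log2 ratios of single genes, 371 stayed within the reported interval, 27 moved out of it and 1 reversed, which was Sema6d across the thinned split (-2.11, on 0 against 3 UMIs). The thinned draw keeps fewer barcodes and UMIs by construction. For the moved ratios the cause was not tested, other than by the values given beside them. No paired analysis was possible because each reporter line had 1 library. A count of 0 in mural barcodes allows a level of up to 9.38 CPM (3 UMIs). The single libraries allow no estimate of the spread between mice.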

Other observations

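Mural barcodes of the NG2-DsRed library were also divided, after the data were seen, by contractile genes (Acta2 or Tagln) and genes known from capillary pericytes (Kcnj8 or Abcc9). Of the 94 barcodes, 20 held contractile genes only, 37 capillary genes only, 32 both kinds and 5 neither. Sema6d stood at 94.1 CPM (43.0 to 179) in contractile and 597 CPM (447 to 781) in capillary barcodes, a log2 ratio of -2.60 (-3.87 to -1.63), and at 339 CPM where both kinds were found. Plxdc1 stood at 41.8 CPM (11.4 to 107) and 304 CPM (200.4 to 442), a log2 ratio of -2.72 (-4.84 to -1.34), and at 205 CPM with both kinds. Plxnd1 had 11 and 5 UMIs, at 115 and 56.3 CPM (log2 0.96, -0.61 to 2.91). Efnb2 (3 and 5 UMIs), Ephb4 (2 and 4), Nrp2 (1 and 4) and Unc5b (0 and 1) were too low to compare, and Sema3g, Sema3c and Robo4 had 0 UMIs in every one of these sets. Median depth was 4817.5 UMIs in contractile and 2275 in capillary barcodes, and the part of depth in these ratios and in which barcodes count as 1 kind only was not tested. No test between these sets was made, since all come from 1 library.

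Barcodes outside the classes as kept also held these RNAs. They include barcodes that met a class rule but failed a limit, or met 2 rules. Before the limits the Tie2-GFP library had 379 endothelial, 4 mural and 87 intermediate barcodes. The NG2-DsRed library had 58, 97 and 23. In the Tie2-GFP library 179 barcodes lay outside the classes, with a median of 1594 UMIs and 65.9% mitochondrial UMIs. Nrp2 stood at 179 CPM there, with 167 UMIs in 22 barcodes, Efnb2 at 52.4 CPM, Sema6d at 25.7 CPM and Sema3g at 19.3 CPM, with all 18 Sema3g UMIs in 4 barcodes. In the NG2-DsRed library 30 such barcodes held Nrp2 at 135 CPM, Sema6d at 58.8 CPM and Sema3g at 52.9 CPM, on 23, 10 and 9 UMIs. These 30 barcodes also held 52708 CPM of erythroid genes, 3693 CPM of the endothelial and 6304 CPM of the mural class genes. The 179 barcodes of the Tie2-GFP library held 4690 CPM of marginal and 4078 CPM of intermediate genes. They also held 1768 CPM of erythroid, 878 CPM of endothelial and 521 CPM of mural genes.

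Between the endothelial barcodes of the 2 libraries, Nrp2 was 0.87 higher on the log2 scale in the Tie2-GFP library (0.57 to 1.19), above the ratio of 86.7% of genes, and Sema6d had a log2 ratio of -1.02 (-1.51 to -0.47), with 14.0% of genes below it. Efnb2 (0.55, 0.14 to 1.01), Plxnd1 (-0.54, -0.90 to -0.14) and Plxdc1 (-2.56, -4.10 to -0.98, on 9 against 8 UMIs) also had intervals that leave out 0. Sema3g (0.09, -0.39 to 0.62), Ephb4 (0.09, -0.46 to 0.74), Unc5b (-0.11, -0.98 to 1.01), Sema3c (0.35, -0.17 to 0.95) and Robo4 (0.28, -0.07 to 0.65) had intervals that span 0. The endothelial barcodes of the Tie2-GFP and NG2-DsRed libraries also differed in mural RNA, at 869 and 4892 CPM of the 4 mural genes. Sema6d and Plxdc1 stood at 335 and 181 CPM in mural barcodes, and the part of mural RNA in their ratios was not tested. Line, batch and software version cannot be told apart in these values.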
